A study of Drosophila melanogaster with 6 samples.

Results

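The sarcomere and gut muscle genes described here are the 10 genes Mhc, sls, bt, Unc-89, Prm, Mlp60A, Mlp84B, Mp20, Act57B and Act87E of Drosophila melanogaster, taken by name from the 17411 genes counted in each library. All 10 were found, with Unc-89 listed as Obsc in Ensembl release 115, and all 10 passed the filter on low counts that left 9285 genes for testing. The series holds polyA-selected RNA-seq of 3 Mex-Gal4>9G8RNAi and 3 Mex-Gal4>GFPdsRNA libraries, called 9G8-RNAi and GFP-dsRNA below. Each group has replicates named A, B and D. The driver Mex-Gal4, carried by both groups, drives expression in the absorptive enterocytes of the midgut epithelium. It expressed a hairpin against 9G8, a splicing factor of the SR family encoded by x16, or a control double-stranded RNA against GFP, a protein that flies do not have. By its label the 9G8-RNAi tissue is intestine, while the control tissue is labelled as fat bodies. The design text also speaks of a yolk Gal4 line, against Mex-Gal4 in the sample titles. Nothing in the labels gives age, sex or flies per library, or says that replicates were separate cohorts. A p-value here therefore sets the group difference against a spread among these samples that may be only technical.

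The gut of the fly is wrapped in circular and longitudinal visceral muscle, which is striated like body wall muscle and contracts through sarcomeres. In a sarcomere, thick filaments of myosin slide along thin filaments of actin that are anchored in the Z-disc, and giant titin-like proteins hold the thick filaments between the Z-discs. In RNA from whole intestines these transcripts can come from the muscle coat and from any other muscle left on the tissue. The tissue labels differ between the groups, and the cell source of these transcripts was not tested. A source outside muscle was not tested either, for Mlp60A and Mp20 or for any other member. Fewer muscle cells and less RNA per cell cannot be told apart in such RNA.

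Total counts were between 26216430 and 66562756 per library, with the fewest in GFP-dsRNA A. Genes without a count numbered 5896, 5163 and 2079 in 9G8-RNAi A, B and D, and 3025, 2342 and 6091 in GFP-dsRNA A, B and D. These numbers did not follow the groups or the total counts, and the reason was not tested. The target gene x16 measured 5.44, 9.76 and 7.69 CPM (a gene's counts over the library's total counts, on a common scale; the unit used below unless another is named) in 9G8-RNAi A, B and D, against 13.9, 7.92 and 12.7 CPM in GFP-dsRNA A, B and D. These groups overlapped. The fitted difference was -0.53 ± 0.46 (log2, SE; adjusted p 0.92 in edgeR), so that a fall of the target transcript was not detectable. Enterocyte transcripts were abundant in all 6 libraries, with alphaTry, a trypsin, at 25203 CPM or more. Of 8 fat body markers 5 passed the filter on low counts, the most abundant being the yolk protein gene Yp3 at 34.7 to 220.3 CPM, and 3 did not, among them the storage protein gene Lsp2 at no more than 0.102 CPM. Library GFP-dsRNA A stood apart from the rest in muscle genes, and the comparisons below are therefore given with and without it.

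Thick filament genes were highest in GFP-dsRNA A. Mhc (FBgn0264695, 2L from 16766566 to 16788766, plus strand, BDGP6), the myosin heavy chain of all fly muscles, measured 40.3, 8.35 and 23.0 CPM in 9G8-RNAi A, B and D, against 1418, 25.1 and 8.71 CPM in GFP-dsRNA A, B and D. Library GFP-dsRNA A was thus far above the other 5, in which the groups overlapped. Prm (FBgn0003149, 3L from 8732858 to 8745310, minus strand), which encodes the thick filament core protein paramyosin, measured 21.7, 4.88 and 10.05 CPM in 9G8-RNAi A, B and D, against 309, 8.40 and 2.95 CPM in GFP-dsRNA A, B and D. It followed the same order of libraries as Mhc at the top, with GFP-dsRNA A first and 9G8-RNAi A second. Unc-89 (FBgn0053519, 2R from 23995543 to 24014254, minus strand), the fly obscurin of the M-line where thick filaments are cross-linked, had the lowest mean TPM of the 10 in both groups (counts per exonic base, scaled to a fixed total per library), although sls was lower than it in 9G8-RNAi A. It measured 3.43, 0.72 and 1.76 CPM in 9G8-RNAi A, B and D, against 107, 1.77 and 0.376 CPM in GFP-dsRNA A, B and D. Its lowest value rested on 12 counts, in GFP-dsRNA D.

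The titin-like genes sls and bt had the highest ratios of GFP-dsRNA A to the other libraries among the 10. The gene sls (FBgn0086906, 3L from 2039681 to 2115611, minus strand) encodes kettin and the longer Sallimus proteins, which link the Z-disc to the thick filament. It measured 11.7, 5.09 and 11.6 CPM in 9G8-RNAi A, B and D, against 1217, 16.5 and 2.95 CPM in GFP-dsRNA A, B and D. The gene bt (FBgn0005666, chromosome 4 from 724400 to 776474, plus strand) encodes projectin, a titin-like protein with a kinase domain. It measured 11.9, 4.18 and 11.3 CPM in 9G8-RNAi A, B and D, against 986, 16.4 and 3.98 CPM in GFP-dsRNA A, B and D. For both genes GFP-dsRNA B was the second highest library and GFP-dsRNA D the lowest in CPM of total counts. On that scale the 3 controls spanned the range of the 9G8-RNAi libraries on both sides. With TMM scaling this held for sls, but the lowest bt value was then in 9G8-RNAi B, at 4.94 CPM. An antisense gene on the opposite strand, asRNA:CR42860, shares 1.85% of the exonic bases of sls and had 27 counts or fewer in any library.

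Both actin genes were highest in GFP-dsRNA A as well. Act57B (FBgn0000044, 2R from 20944021 to 20946431, plus strand), a muscle actin of larval and adult body muscles, measured 99.1, 19.9 and 49.1 CPM in 9G8-RNAi A, B and D, against 1031, 47.0 and 26.9 CPM in GFP-dsRNA A, B and D. Act87E (FBgn0000046, 3R from 13425983 to 13428375, plus strand), another muscle actin, measured 18.3, 3.18 and 10.08 CPM in 9G8-RNAi A, B and D, against 119.8, 8.53 and 5.61 CPM in GFP-dsRNA A, B and D. In both, 9G8-RNAi A was second and 9G8-RNAi B lowest, and the groups overlapped. The actin genes of the fly are near-identical in their coding parts, so reads may be shared between them and these values are uncertain. The ratio of Act57B to Act87E in TPM was 6.24, 7.20 and 5.62 in 9G8-RNAi A, B and D, and 9.93, 6.36 and 5.54 in GFP-dsRNA A, B and D.

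The LIM and calponin-like genes did not share 1 pattern. Mlp84B (FBgn0014863, 3R from 7112850 to 7117732, minus strand), a muscle LIM protein of the Z-disc, measured 13.02, 9.32 and 12.0 CPM in 9G8-RNAi A, B and D, against 88.0, 7.87 and 9.81 CPM in GFP-dsRNA A, B and D. It was high in GFP-dsRNA A and varied little over the other 5 libraries. Mlp60A (FBgn0259209, 2R from 24074602 to 24078223, plus strand), the other muscle LIM protein, measured 872, 352 and 429.7 CPM in 9G8-RNAi A, B and D, against 328, 511 and 517 CPM in GFP-dsRNA A, B and D. It was the only one of the 10 that was lowest in GFP-dsRNA A, both in CPM of total counts and with TMM scaling, where GFP-dsRNA A measured 195 CPM and the lowest other library 368 CPM. In TPM it was not the lowest there, at 129.9 in GFP-dsRNA A and 108 in 9G8-RNAi B. Mp20 (FBgn0002789, 2R from 13246670 to 13248880, plus strand), a calponin-like protein of muscles other than the flight muscle, measured 154, 161 and 156 CPM in 9G8-RNAi A, B and D, against 240.0, 127 and 183 CPM in GFP-dsRNA A, B and D. All 9G8-RNAi values fell between GFP-dsRNA B and GFP-dsRNA D. Their mean was 157 ± 3.62 CPM of total counts (SD, n = 3), but 168 ± 29.8 CPM with TMM scaling and 144 ± 15.2 TPM, so how close they lay depends on the scale.

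**Figure D1:**
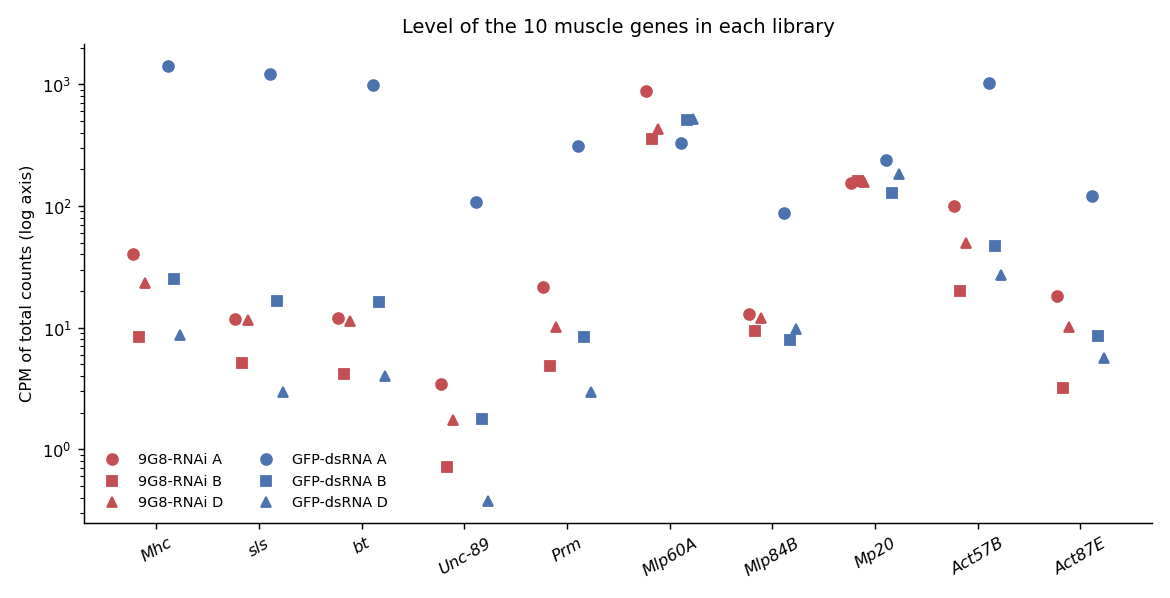
Level of each of the 10 muscle genes in CPM of total counts (log axis), with 9G8-RNAi libraries in red left of GFP-dsRNA libraries in blue and the replicate letter as the symbol. GFP-dsRNA A lies above every other library for 9 genes, from Mhc at 1418 CPM to Mlp84B at 88.0 CPM, while Mlp60A is lowest there at 328 CPM.

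How far GFP-dsRNA A stood above the rest was measured as its CPM over the highest CPM of the other 5 libraries. With 1 library there is no replicate and no test, and the intervals cover counting error only. The ratio was 73.8 for sls (95% interval from 68.8 to 79.4), 60.3 for bt, 35.2 for Mhc and 31.3 for Unc-89 (from 25.6 to 38.5). It was 14.3 for Prm, 10.4 for Act57B, 6.76 for Mlp84B and 6.54 for Act87E, against 1.31 for Mp20 and 0.376 for Mlp60A. Thus 8 of the 10 genes reached 4-fold, where 4.94% of all tested genes did, and 9 were highest in GFP-dsRNA A, where 65.2% of all tested genes were. The median ratio was 12.3 over the 10 genes and 1.21 over all tested genes. Mlp60A was among the 4.74% of genes that were lowest there. With TMM scaling, in which the factor of GFP-dsRNA A was 1.68 against 0.635 to 1.17 in the others, 6 genes reached 4-fold, where 2.95% of all tested genes did, with sls at 48.7, bt at 39.8, Mhc at 17.9, Unc-89 at 15.9, Prm at 7.25 and Act57B at 5.29. In that scaling Mlp84B stood at 3.39 and Act87E at 3.32, and Mp20 was no longer highest in GFP-dsRNA A, at 0.495. With RLE scaling 6 genes reached 4-fold, where 2.78% of all tested genes did. In CPM of total counts, 8 genes reached 2-fold (14.3% of all tested genes) and 6 reached 8-fold (2.57%).

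Exonic length ran with this ratio among the members. The 4 longest genes, sls with 58996 exonic bases, bt with 28019, Unc-89 with 13261 and Mhc with 9058, had the 4 highest ratios, and Mp20, the shortest with 948, had the second lowest. Spearman's rho between exonic length and the ratio was 0.87 over the 10 genes, which share the same libraries, and 0.27 over all 9285 tested genes. The level in the other 5 libraries ran with the ratio as closely, in the opposite direction. Between their median TPM and the ratio, rho was -0.87 over the 10 genes and -0.30 over all tested genes. Those libraries also set the denominator of the ratio, and length and level were not separated here. When the trend with exonic length was removed from each library, the ratios were 18.5 for sls, 19.07 for bt, 11.7 for Mhc, 9.13 for Unc-89, 5.61 for Prm and 4.98 for Act57B, and 6 genes reached 4-fold, where 2.5% of all tested genes did. Mlp84B stood at 2.77 and Act87E at 3.08 after that step, Mp20 at 0.679 and Mlp60A at 0.174.

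**Figure D2:**
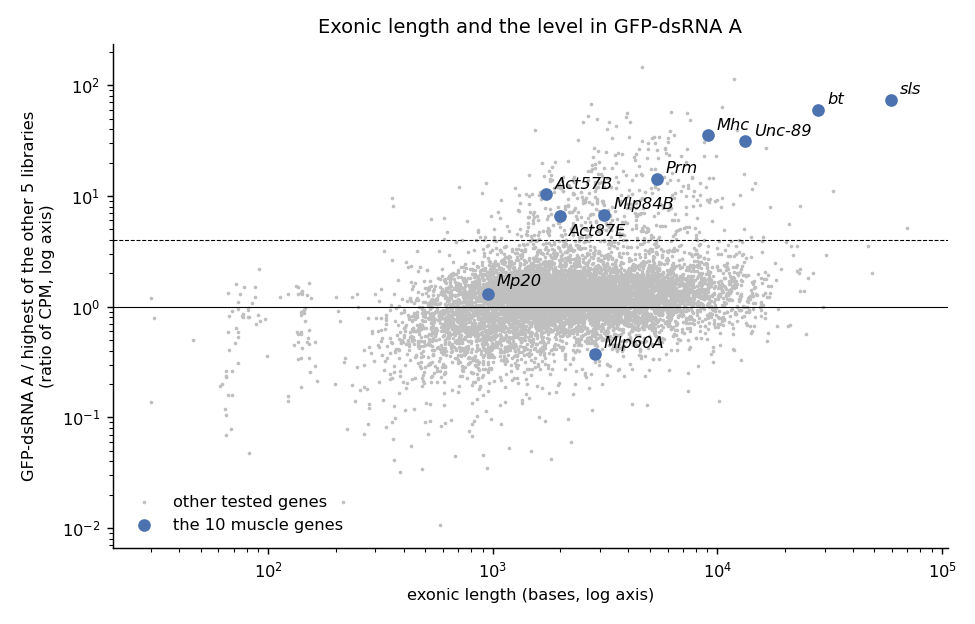
Ratio of GFP-dsRNA A to the highest of the other 5 libraries (CPM, log axis) against exonic length (bases, log axis) for the tested genes in grey, without the 7 that had no count in GFP-dsRNA A, and for the 10 muscle genes in blue. The dashed line marks 4-fold, above which 8 of the 10 muscle genes lie, and the solid line marks equal levels.

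Compared per length, Mlp60A and Mp20 made up most of the summed TPM of the 10 genes in 5 libraries and not in the sixth. In 9G8-RNAi libraries the order by mean TPM was Mlp60A at 165, Mp20 at 144, Act57B at 27.5, Act87E at 4.50, Mlp84B at 3.17, Mhc at 2.25, Prm at 1.93, bt at 0.283, sls at 0.140 and Unc-89 at 0.126. Of these neighbours, only Mp20 and Act57B, Act57B and Act87E, and Prm and bt did not overlap in range. In GFP-dsRNA B and D the mean order was the same, from 166 TPM for Mlp60A to 0.0754 TPM for Unc-89. In GFP-dsRNA A the order was Act57B at 673, Mp20 at 285, Mhc at 176, Mlp60A at 129.9, Act87E at 67.8, Prm at 64.9, bt at 39.7, Mlp84B at 31.6, sls at 23.2 and Unc-89 at 9.12 TPM. Over all 3 GFP-dsRNA libraries every pair of neighbours overlapped. Mlp60A and Mp20 together took 85.4%, 94.2% and 88.1% of the summed TPM of the 10 genes in 9G8-RNAi A, B and D, and 27.6%, 88.8% and 94.2% in GFP-dsRNA A, B and D.

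**Figure D3:**
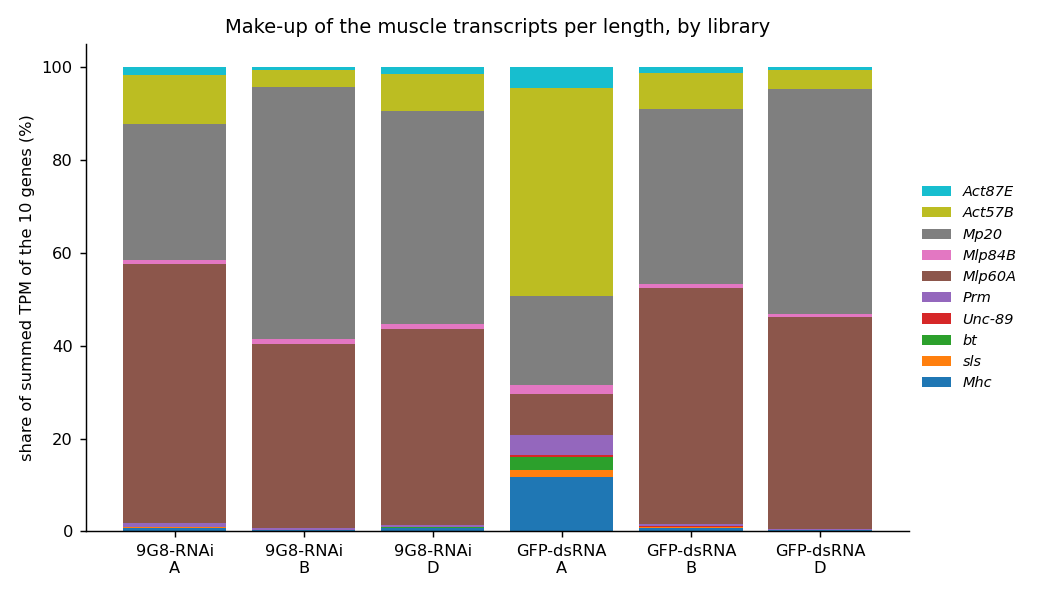
Share of each gene in the summed TPM of the 10 muscle genes (%), 1 bar per library, 9G8-RNAi left of GFP-dsRNA. Mlp60A and Mp20 fill at least 85.4% of 5 bars and 27.6% of the bar of GFP-dsRNA A, where Act57B takes 44.9% and Mhc 11.7%.

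Ratios within a library also differed. Mhc stood at 0.0145, 0.00744 and 0.0168 of the Mlp60A level in TPM in 9G8-RNAi A, B and D, and at 1.36, 0.0154 and 0.00528 in GFP-dsRNA A, B and D. The giant genes were also set against Mhc. In TPM, sls stood at 0.0447, 0.0937 and 0.0774 of Mhc in 9G8-RNAi A, B and D and at 0.132, 0.101 and 0.0519 in GFP-dsRNA A, B and D. On the same scale, bt stood at 0.0957, 0.162 and 0.158 of Mhc in 9G8-RNAi A, B and D and at 0.225, 0.211 and 0.148 in GFP-dsRNA A, B and D. Unc-89 stood at 0.0582, 0.0590 and 0.0521 of Mhc in 9G8-RNAi A, B and D and at 0.0517, 0.0481 and 0.0295 in GFP-dsRNA A, B and D. GFP-dsRNA A was therefore within the range of the other libraries for Unc-89 over Mhc, above it for sls and bt over Mhc, and far above it for Mhc over Mlp60A. Gene counts do not separate the spliced forms of Mhc, sls or bt.

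The comparison of 9G8-RNAi with GFP-dsRNA asks whether muscle transcripts differ when 9G8 is targeted in enterocytes. None of the 10 genes passed an adjusted p of 0.05 in edgeR's quasi-likelihood test, where 0.118% of all tested genes did, 0.0862% higher and 0.0323% lower. At an unadjusted p under 0.05 there were 2 of the 10, sls and bt, among 421 of the 9285 genes. DESeq2 called 0 of the 10, but gave no adjusted p for Mhc, sls, bt, Unc-89, Prm and Act57B. These 6 had the largest falls in the edgeR fit, so the DESeq2 result does not cover them. With limma-voom 0 of the 10 passed. The groups overlapped for all 10 genes, where 2.5% of tested genes lay wholly above and 1.58% wholly below in 9G8-RNAi. The log2 fold change was below 0 for 9 of the 10, with a median of -2.13, against 55.7% of all tested genes and a median of -0.07.

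The fitted changes were wide. For sls the log2 fold change was -4.65 ± 1.87 (SE) and for bt -4.41 ± 1.75, both with an edgeR adjusted p of 0.92. Mean levels of sls were 9.48 ± 3.80 CPM in 9G8-RNAi and 412 ± 697 CPM in GFP-dsRNA (SD, n = 3 each), so the spread of the controls exceeded their mean. Mhc gave -3.52 ± 1.66, Unc-89 -3.39 ± 1.72, Prm -2.31 ± 1.45, Act57B -1.94 ± 1.21, Act87E -1.38 ± 1.05 and Mlp84B -1.04 ± 0.65, on the log2 scale with SE. Mp20 gave -0.12 ± 0.43 and Mlp60A 0.29 ± 0.62.

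Without GFP-dsRNA A most of these changes were near 0 or had the other sign. Again 0 of the 10 genes passed in edgeR, where 0.115% of the 9564 genes then tested did (0.0941% higher and 0.0209% lower), and 0 of the 10 had an unadjusted p under 0.05, against 633 of all genes. The log2 fold change was below 0 for 4 of the 10, with a median of 0.22, against 53.0% of all genes and a median of -0.03. It was -0.01 ± 0.51 for sls and -0.18 ± 0.49 for bt, against -4.65 and -4.41 with all libraries. Mhc gave 0.45 ± 0.59, with a 95% interval from -0.92 to 1.81, Act57B 0.46 ± 0.61, Act87E 0.38 ± 0.62 and Unc-89 0.86 ± 0.68. The highest was Prm at 1.07 ± 0.61, with an interval from -0.35 to 2.48 and an edgeR adjusted p of 0.83. Mlp84B gave 0.05 ± 0.43, Mlp60A -0.15 ± 0.58 and Mp20 -0.32 ± 0.50. In CPM of total counts Prm averaged 12.2 ± 8.59 in 9G8-RNAi (SD, n = 3), against 8.40 and 2.95 in GFP-dsRNA B and D. All 10 genes still overlapped between groups, where 16.9% of tested genes lay wholly above and 2.23% wholly below in 9G8-RNAi.

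**Figure D4:**
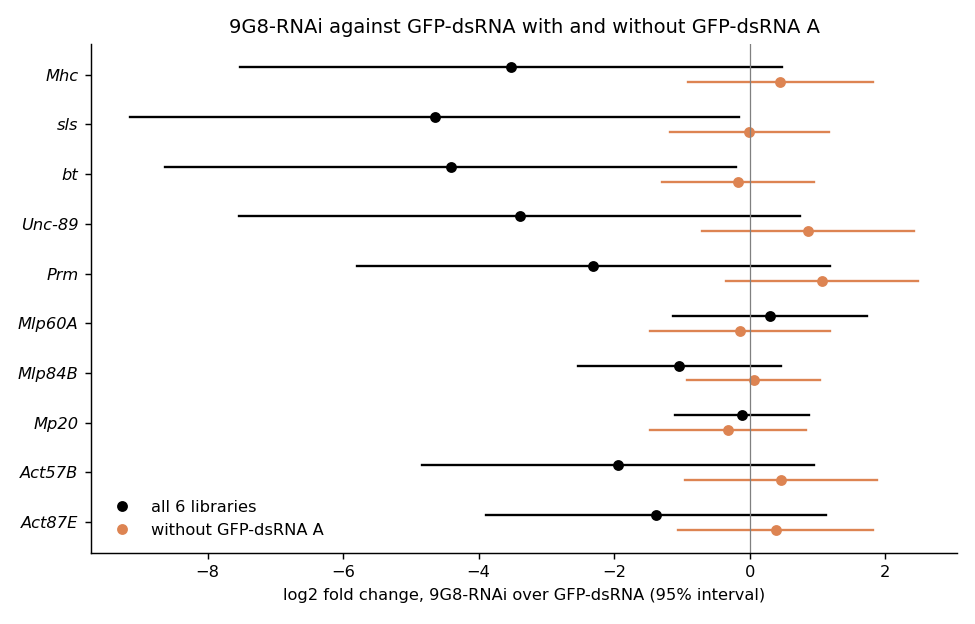
Log2 fold change of 9G8-RNAi over GFP-dsRNA for the 10 muscle genes with 95% intervals (edgeR), with all 6 libraries in black above the fit without GFP-dsRNA A in orange. With all libraries the estimates run from -4.65 for sls to 0.29 for Mlp60A, and without GFP-dsRNA A from -0.32 for Mp20 to 1.07 for Prm.

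Library 9G8-RNAi A also differed from its group. Among the 5 libraries other than GFP-dsRNA A it was the highest for 7 of the 10 genes, where 9.92% of all tested genes were highest there. The lowest of these 5 was 9G8-RNAi B for 4 genes, GFP-dsRNA D for 4 and GFP-dsRNA B for 2. Of 6 flight and leg muscle genes, 3 were highest in 9G8-RNAi A and 2 in GFP-dsRNA A. Of all tested genes, 65.2% were highest in GFP-dsRNA A, and the share highest of all 6 libraries in 9G8-RNAi A was not counted. Only 3 of the 6 genes passed the filter on low counts, and Act88F, fln and salm did not. Act88F, the flight muscle actin, stood at 4.72 CPM in 9G8-RNAi A and at most 0.267 CPM elsewhere, TpnC4, a flight muscle troponin C, at 4.86 against at most 0.496 CPM, and fln, the flight muscle protein flightin, at 1.80 against at most 0.0627 CPM. Act88F and fln were picked out after their values were seen. TpnC4 was 1 of 5 tested genes, or 0.0539%, that reached 4 times the other libraries in 9G8-RNAi A. The splicing regulator gene bru1 stood instead at 20.8 CPM in GFP-dsRNA A and at most 2.09 CPM elsewhere, and the transcription factor gene salm at 5.99 and at most 0.361 CPM. Act79B, a leg muscle actin, lay between 1.03 and 3.09 CPM and was highest in 9G8-RNAi D. The part of other muscle in the values of either library was not tested. With the letter A libraries left out of both groups, the log2 fold changes were -0.38 ± 0.48 for Mhc, 0.16 ± 0.43 for Prm and -0.45 ± 0.45 for Act57B, 0 of the 10 genes passed in edgeR, where 0.021% of tested genes did (0.0105% in each direction), and 0 had an unadjusted p under 0.05.

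Other genes of the sarcomere had 0 members past the threshold in edgeR, with or without GFP-dsRNA A. The thin filament list had 11 tested of 13 genes, 4 of them at 4-fold or more in GFP-dsRNA A, and a median log2 fold change of -0.34, or 0.54 without GFP-dsRNA A. These counts at 4-fold, here and for the lists below, are in CPM of total counts, where 4.94% of all tested genes reached it. With TMM scaling 2.95% of all tested genes did, and the lists were not counted on that scale. The troponin T gene up measured 33.2, 12.4 and 20.8 CPM in 9G8-RNAi A, B and D, against 307, 13.7 and 11.9 CPM in GFP-dsRNA A, B and D. Tm1, a tropomyosin also used outside muscle, measured 142, 103 and 171 CPM in 9G8-RNAi A, B and D, against 390.3, 145 and 81.7 CPM in GFP-dsRNA A, B and D. GFP-dsRNA A was highest for both genes, by far more for up than for Tm1. Of 5 tested thick filament genes 1 reached 4-fold in GFP-dsRNA A: Strn-Mlck, a titin-related myosin light chain kinase, stood at 84.5 CPM there and at most 7.58 CPM elsewhere. The light chain gene Mlc2 measured 421 CPM in GFP-dsRNA A and at most 130.3 CPM elsewhere.

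Z-disc genes numbered 9 tested of 10, with 4 at 4-fold or more in GFP-dsRNA A, where 4.94% of all tested genes were. Their median log2 fold change was -0.75, or 0.07 without that library. Zasp52, which binds alpha-actinin, measured 77.1 CPM in GFP-dsRNA A and at most 24.0 CPM elsewhere, while the actin capping gene cpa measured 80.1 and at most 68.0 CPM. Picked out after their values were seen, zormin, a titin-like Z-disc gene, stood at 130.8 CPM against at most 3.30 CPM, and Actn, alpha-actinin, at 108.9 against at most 8.63 CPM. Calcium handling and membrane genes had 5 of 11 tested at 4-fold or more and a median of -0.87, or -0.14 without GFP-dsRNA A. Msp300, the giant nesprin that anchors muscle nuclei, measured 1346 CPM there and at most 261 CPM elsewhere, and Argk1, arginine kinase, which also works outside muscle, 1374 CPM against at most 1653 CPM. The ryanodine receptor gene RyR, picked out after its values were seen, stood at 39.9 against at most 1.46 CPM. Attachment and matrix genes had 5 of 14 at 4-fold or more and a median of -0.55, or -0.11 without GFP-dsRNA A, with trol, the perlecan of basement membranes, at 431 against at most 76.9 CPM. Muscle regulators had 7 tested of 11 genes, 0 of them at 4-fold or more. That count leaves out twi and bap, which did not pass the filter on low counts. Picked out after their values were seen, they stood at 48.6 and 32.9 times the highest other library. Those libraries had only 0.105 CPM for twi and 0.102 CPM for bap, at or near the floor of 3 counts, so both ratios are imprecise. Also left out by the filter, nau and sns were not highest in GFP-dsRNA A. Mef2, the main transcription factor of muscle differentiation, stood at 36.4 CPM in GFP-dsRNA A and at most 22.4 CPM elsewhere.

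Some markers of other tissues also differed in GFP-dsRNA A. The 4 hindgut markers summed to 27.6, 24.8 and 43.4 CPM in 9G8-RNAi A, B and D, against 138.5, 22.2 and 15.3 CPM in GFP-dsRNA A, B and D. All 3 tested markers were highest in GFP-dsRNA A, where 65.2% of all tested genes were. Of these, byn, the transcription factor brachyenteron of the hindgut, stood at 74.1 CPM there and at most 1.39 CPM elsewhere. In contrast, bowl stood at 21.1 against at most 16.4 CPM and drm at 30.9 against at most 25.5 CPM. Their ratios of 1.29 and 1.21 were near the median of 1.21 over all tested genes. Another hindgut transcription factor, otp, stood at 12.5 against at most 0.436 CPM and did not pass the filter on low counts. The 8 enterocyte markers summed to 52230 CPM in GFP-dsRNA A and to between 80430 and 194462 CPM in the other 5 libraries. That sum is mostly trypsin and Jonah proteases, and 2 of the 8 were highest in GFP-dsRNA A: Mex1, the gene the driver is named for, at 458 CPM against at most 270.4 CPM, and nub at 65.3 against at most 63.7 CPM. The 8 fat body markers summed to 488, 245 and 114 CPM in 9G8-RNAi A, B and D, against 500.3, 83.2 and 133 CPM in GFP-dsRNA A, B and D, and no 1 pattern held for the list. Yp1, Yp2 and Yp3, which encode yolk proteins, were highest in 9G8-RNAi A, at 111, 105 and 220.3 CPM there and 68.6, 93.0 and 185 CPM in GFP-dsRNA A. The lipoprotein gene apolpp stood at 82.8 CPM in GFP-dsRNA A and at most 44.6 CPM elsewhere, and fon, picked out after its values were seen, at 70.6 and at most 6.59 CPM. Lsp2, Fbp1 and Fbp2 each stayed within 0.168 CPM. The part of hindgut or fat body material in the muscle values was not tested.

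**Figure D5:**
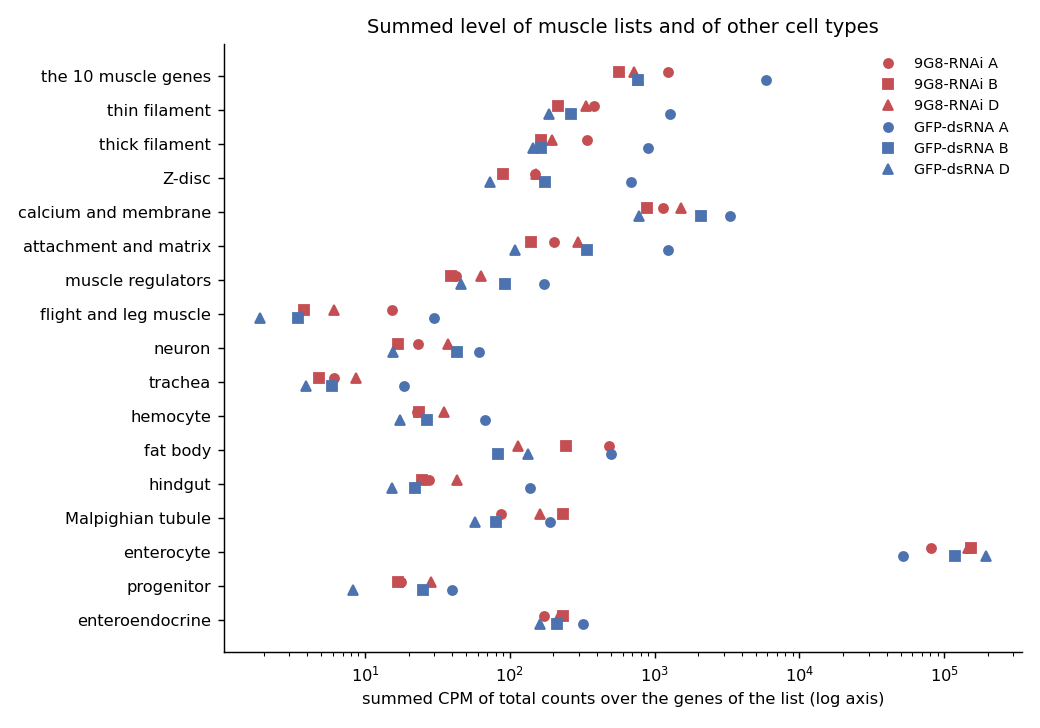
Summed CPM of total counts (log axis) over the genes of each list, 1 point per library, with 9G8-RNAi in red above GFP-dsRNA in blue and the replicate letter as the symbol. GFP-dsRNA A is highest for the 10 muscle genes, at 5844 CPM against at most 1245 CPM, and lowest for the enterocyte markers, at 52230 CPM.

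The genes whose levels followed the mean profile of the 10 muscle genes most closely were ranked by the root mean square difference of centred log2(CPM + 0.5) over the 6 libraries, among 5657 other genes with a mean of at least 5 CPM. The 5 nearest were CG44245 at 0.153, tn at 0.154, hlk at 0.175, CG45076 at 0.184 and CG5080 at 0.202 on the log2 scale. Of these, tn encodes thin, a TRIM protein of the Z-disc, and measured 3.40, 1.302 and 2.00 CPM in 9G8-RNAi A, B and D, against 46.9, 2.11 and 0.846 CPM in GFP-dsRNA A, B and D. The members themselves lay between 0.266 for Act57B and 1.87 for Mlp60A from their own mean, and Mp20 at 1.498 was the second farthest. The mean profile rests mainly on GFP-dsRNA A, which stood at 3.57 on the centred log2 scale, against 0.10, -1.38 and -0.47 in 9G8-RNAi A, B and D and -0.47 and -1.36 in GFP-dsRNA B and D.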

How the data were processed

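RNA from 6 libraries was compared, 3 per group. For each library the authors deposited whole-number read counts by gene without normalization. The tools listed per the submitters' processing notes are STAR 2.5.2b, Trimmomatic 0.36, featureCounts and Subread 1.5.2, and the build is BDGP6. Neither their settings nor the strand option is stated in the labels or notes, so antisense reads cannot be told apart. The deposited exonic length, another column of each file, covers the exons of all forms of a gene, so TPM of genes with many spliced forms may be understated. Symbols came from Ensembl release 115, where 17137 identifiers matched and 218 were named by position at 80% reciprocal overlap, while 56 stayed unnamed.

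Counts were tested with edgeR 4.0.16 in R 4.3.3 (filterByExpr, TMM, robust quasi-likelihood test, Benjamini-Hochberg adjustment over all tested genes, threshold 0.05). Log2 fold changes are 9G8-RNAi minus GFP-dsRNA. The step was tested on simulated data. Levels, TPM and ratios were computed in Python 3.11.15. A floor of 3 counts corresponds to 0.0451 to 0.114 CPM, and intervals cover counting error only. No pair of libraries agreed within sampling noise (lowest chi-square over its degrees of freedom 266). The members and the 16 other gene lists were chosen with earlier results of these data known. Named genes are the members, x16, up to 4 per list by adjusted p and then mean CPM, and the 5 with the most alike profile. Alternatives were RLE factors, total counts only, library sizes without the 20 genes with most counts, no filter on low counts, only genes above 1 CPM in at least 3 libraries, limma-voom (limma 3.58.1), DESeq2 1.42.0, the replicate letter as a block, removal of the length trend and leaving out each library. Leaving out both letter A libraries and the alternatives for the ratio of GFP-dsRNA A were added after seeing the data. No sequences of the members were used here.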

Additional observations from a re-analysis of the deposited data

How the results depend on the processing

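Under the alternatives run, 0 of the 10 muscle genes passed the threshold, with adjusted p between 0.477 and 0.9997 over all of them; DESeq2 gave no adjusted p for 6 genes, which have no result there. Without GFP-dsRNA A the log2 fold change turned to 0.45 for Mhc, 0.86 for Unc-89, 1.07 for Prm, 0.055 for Mlp84B, 0.46 for Act57B, 0.38 for Act87E and -0.15 for Mlp60A. Mlp60A was also at -0.32 without 9G8-RNAi A, and with both letter A libraries left out Mlp60A was at -0.75 and Prm at 0.16. Mp20 turned to 0.02 without 9G8-RNAi D and to 0.47 without GFP-dsRNA D, and x16 to 0.18 without GFP-dsRNA D. The cause was not tested. At the other end of the range over left-out libraries stood -4.30 for Mhc, -4.20 for Unc-89, -3.17 for Prm, -1.44 for Mlp84B, -2.82 for Act57B, -2.23 for Act87E, 0.94 for Mlp60A, -0.38 for Mp20 and -0.86 for x16. The number of genes at 4-fold or more in GFP-dsRNA A was 6 with TMM, RLE, the length trend removed or an 8-fold threshold and 8 at 2-fold, against 8.

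Over all genes 11 passed (8 higher, 3 lower), against 17 with total counts only (9 higher, 8 lower; median of all genes -0.33 against -0.07), 55 with library sizes without the 20 genes with most counts (30 higher, 25 lower), 50 with no low-count filter, 104 with DESeq2, 4 with limma-voom, 20 with the length trend removed and 2 without both letter A libraries. Leaving out 9G8-RNAi A, B or D left 2, 0 and 2, and leaving out GFP-dsRNA A, B or D left 11, 5 and 4. Adding the replicate letter as a block left 0 genes (217 at an unadjusted p under 0.05 in edgeR). The median of the 10 genes was -1.01 with that block. Deviations from the group means of libraries with the same letter correlated at -0.02, -0.35 and -0.46 for A, B and D, so no sign of pairing by letter was seen. The highest correlations were between unlike letters, at 0.50 for 9G8-RNAi B with GFP-dsRNA D and 0.31 for 9G8-RNAi D with GFP-dsRNA B. What those pairs share was not tested. With 3 libraries per group these correlations cannot show whether a letter stands for a shared cohort or batch. Of 256 list counts under the alternatives, 255 stayed the same, and DESeq2 called 1 muscle regulator lower. Depth limits Unc-89 most, with 12 counts in GFP-dsRNA D.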

Other observations

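Among the low-level muscle regulator genes, twi and bap were far higher in GFP-dsRNA A than in the other 5 libraries. Like if and LanB2 below, they were picked out after their values were seen. In GFP-dsRNA A twi, the transcription factor twist, stood at 5.11 CPM and at most 0.105 CPM elsewhere, and bap, bagpipe, which specifies visceral mesoderm in the embryo, at 3.36 and at most 0.102 CPM. Neither passed the filter on low counts. Other low-level genes of that list differed less or not at all. HLH54F stood at 0.534 against at most 0.421 CPM and bin at 2.06 against at most 0.748 CPM, while nau and sns were not highest in GFP-dsRNA A. From the attachment and matrix list, the integrin subunit gene if stood at 88.1 CPM in GFP-dsRNA A and at most 2.88 CPM elsewhere, and the laminin gene LanB2 at 89.03 and at most 3.67 CPM.

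Markers of further cell types gave the following sums in CPM of total counts. TMM scaling, with its factor of 1.68 for GFP-dsRNA A, would lower the sums most in that library. The 6 neuron markers summed to 61.4 CPM in GFP-dsRNA A and to between 15.6 and 42.9 CPM elsewhere, and the 5 tracheal markers to 18.5 and between 3.89 and 8.65 CPM. Of the neuron markers 3 were highest in GFP-dsRNA A and of the tracheal markers 5, where 65.2% of all tested genes were. Most of the neuron sum there was Syx1A, at 39.7 CPM against at most 33.5 CPM elsewhere. The 5 hemocyte markers summed to 67.9 and between 17.4 and 35.3 CPM, of which crq alone gave 65.8 CPM in GFP-dsRNA A. Hml stood at 1.07 CPM there and NimC1 at 0.610 CPM, within the range of the other 5 libraries, and He was at 0 in every library. Tubule markers summed to 191 CPM in GFP-dsRNA A, within the range of 57.3 to 232 CPM of the other 5. The 5 progenitor markers summed to 40.1 CPM in GFP-dsRNA A against 8.21 to 28.7 CPM elsewhere, and the 6 enteroendocrine markers to 319 against 161 to 234 CPM. In each of these lists 3 markers were highest in GFP-dsRNA A.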
